A study of Homo sapiens with 6 samples.

Results

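The comparison described here sets A549 cells given an siRNA against STAT3 beside EGF-stimulated control cells. Its members were chosen by sample title: the 2 arrays of the STAT3 siRNA group and the 2 arrays of the EGF control group, which make 4 of the 6 arrays in the series. The other 2 arrays, from cells given a PIAS3 plasmid, entered the estimate of spread and are shown beside single results. A549 is an established line from a human lung adenocarcinoma, described in the labels as basal epithelial cells of the alveolus. The study set the response to PIAS3, a protein inhibitor of STAT3, beside the response to loss of STAT3 itself, with apoptosis genes in view. Cells of every group were seeded for 12 h in medium with 10% FBS. The siRNA group was then transfected with siRNA against STAT3 (its sequence was not used here), and the PIAS3 group with the pCMV5 vector carrying human PIAS3. The control cells were untreated according to the protocol and EGF stimulated according to their titles. The design text gives serum-free medium and then EGF to all 3 groups. RNA was taken 48 h after transfection. The control cells were not transfected, and no group here received a non-targeting siRNA or the reagent alone, so the effects of transfection and of the STAT3 siRNA cannot be told apart. Nothing in the labels says whether the arrays of 1 group came from 1 culture or from separate ones. The spread that the p-values rest on may therefore be technical.

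STAT3 is a transcription factor that waits in the cytoplasm, is phosphorylated by JAK kinases bound to cytokine receptors or by growth factor receptors such as EGFR, and then enters the nucleus as a dimer. There it binds a palindromic DNA element and controls genes of survival, acute phase response and negative feedback, among them the SOCS inhibitors. In lung adenocarcinoma cells STAT3 is often kept active by EGFR and by IL-6 family cytokines. An siRNA lowers the messenger RNA it matches through the Argonaute proteins.

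Values are log2 levels per probe set, so a difference of 1 is a doubling, and the number of arrays limits their precision. Array medians lay between 6.63 and 6.72. Differences are siRNA mean minus control mean with the standard error of one limma fit over all 6 arrays (n = 2 per group), and a call means an adjusted p under 0.05 over 22215 probe sets. Each gene is given by its brightest probe set unless stated. The siRNA arrays were less alike than the controls: over all probe sets the SD of the difference between them was 0.254, against 0.152 between the controls. siRNA replicate 1 lay nearest to control replicate 2 (0.199), and siRNA replicate 2 lay nearest to PIAS3 replicate 2 (0.187). The reason was not tested, and whether an array was mislabelled cannot be told from the data used here. Because the siRNA arrays were less alike, both are given for the genes described most closely, and the counts for each array alone are given beside the main gene groups. The 3' probe sets of actin exceeded the 5' ones by 0.16 and 0.23 in the siRNA arrays and by 0.12 and 0.10 in the controls, and the part of RNA quality in the results was not tested. Of 5 epithelial markers, the keratin KRT18 read between 13.60 and 13.79 on all 4 arrays. EPCAM and KRT19 lay at least 1 log2 below the control mean in siRNA replicate 2, EPCAM at 7.12 and 6.04 against 7.24 and 7.22. Of 3 leukocyte markers PTPRC and LYZ stayed under 4, while CD3E read 7.09 and 6.63 against 6.67 and 6.89, with overlap. The summed log2 level of the 5 epithelial markers was 52.3 and 50.2 in the siRNA arrays and 53.1 and 52.5 in the controls. Of 6 alveolar type II markers the surfactant genes SFTPB and SFTPC lay between 7.07 and 7.71 with overlapping groups, and SFTPD between 4.56 and 4.76. Over the 6, differences ran from -0.31, for ABCA3, to 0.06. On both siRNA arrays 1 of them lay below both controls and 0 above (all genes: 19.5% and 19.4%). In bulk RNA, fewer cells of a type and less RNA per cell cannot be told apart, which holds for every difference below.

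STAT3 stood at 10.23 and 9.94 in the siRNA arrays and at 10.50 and 10.43 in the controls. Both siRNA arrays lay below both controls, by a small margin in replicate 1. The difference was -0.38 ± 0.18, which is 1.30-fold, and limma did not call it (adjusted p = 0.9998). The other STAT3 probe set read 9.78 and 9.62 against 10.02 and 10.03, a difference of -0.33 ± 0.15. The knockdown at 48 h was thus not separated from the spread between arrays, and the PIAS3 arrays, whose cells received no STAT3 siRNA, read 10.18 and 9.70. The small RNA machinery was near its control level as a group, with a median difference of 0.05 over 10 genes. Of the 10, 1 lay above both controls on both siRNA arrays and 3 below (all genes: 19.4% and 19.5%). The dicing enzyme DICER1 read 7.93 and 7.73 against 8.07 and 8.22, the lowest difference of the list at -0.31.

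The other members of the JAK-STAT pathway gave 0 calls, where over all probe sets 0% were called higher and 0.0045% lower. Among 9 ligands the median difference was -0.02. IL11, an IL-6 family cytokine, read 7.96 and 7.53 against 8.12 and 8.20, and IL6 itself was dim at 4.17 and 3.73 against 4.24 and 4.09. LIF overlapped with the controls, at 7.87 and 8.07 against 8.12 and 8.06. Among 10 receptors the median was -0.07. OSMR, the receptor for oncostatin M, stood below both controls at 7.26 and 7.29 against 7.56 and 7.62 (-0.32 ± 0.12), and was the receptor with the smallest p. The shared signalling subunit IL6ST differed by -0.13 ± 0.16. Of the 4 kinases, JAK1 read 10.26 and 10.76 against 10.62 and 10.55, so the siRNA arrays lay on either side of the controls. JAK2, JAK3 and TYK2 differed by 0.15, 0.24 and -0.01.

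Of 5 measured STAT genes, STAT4, a mediator of IL-12 signals in lymphocytes, stood above control at 8.05 and 8.14 against 7.57 and 7.74 (0.44 ± 0.12, adjusted p = 0.762). STAT5B and STAT5A differed by -0.23 ± 0.14 and -0.17 ± 0.16, and STAT6 by -0.08 ± 0.14. Among 15 inhibitors the median was -0.09. SOCS3, a feedback inhibitor that STAT3 itself induces, read 6.18 and 6.64 against 6.52 and 6.50 and so overlapped with the controls. SOCS2 stood lower at 9.07 and 8.88 against 9.26 and 9.28, and SOCS5 read 8.52 and 9.37 against 8.52 and 8.59, high in replicate 2 alone. PIAS3 read 7.50 and 7.64 against 7.70 and 7.71, and 7.78 and 7.72 in the arrays of the PIAS3 plasmid. Whether the plasmid's insert contains the sequence this probe set reads was not checked. Why the plasmid arrays read so near control was not tested.

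Genes listed from general knowledge as STAT3 targets stood close to control as a group. Their median difference over 39 genes was -0.07, against -0.00 over all 11963 genes, with -0.09 in replicate 1 and -0.00 in replicate 2. Of the 39, 7 lay above both controls in both siRNA arrays and 11 below, where over all genes the shares were 19.4% and 19.5%. STAT3 itself is in the list and among those below, and members such as FOS, KLF6 and MYC are also immediate early genes. Differences ran from -0.94 for FOS to 1.28 ± 0.53 for the fibrinogen chain FGG, which read 6.21 and 7.92 against 5.93 and 5.64. PIM1, a survival kinase, read 8.04 and 7.89 against 8.0 and 7.95. The anti-apoptotic MCL1 stood at 10.77 and 10.45 against 11.13 and 11.00, below both controls (-0.46 ± 0.19). The proto-oncogene MYC read 11.14 and 11.56 against 11.66 and 11.69 (-0.33 ± 0.16). BCL2L1, another survival gene, gave 10.31 and 10.43 against 10.41 and 10.40, with overlap. BCL6, a transcriptional repressor, stood above control at 7.61 and 7.94 against 7.26 and 7.16 (0.56 ± 0.29). BCL6 is shown because it carries the STAT palindrome, TTCNNNGAA, within the last 120 bases before its RefSeq start. That stretch is chr3:187745469-187745588 on the minus strand of GRCh38.p14, with the palindrome in capitals:
BCL6: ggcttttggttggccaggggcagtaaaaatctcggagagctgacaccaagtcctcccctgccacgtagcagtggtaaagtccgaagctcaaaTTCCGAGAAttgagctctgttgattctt
The palindrome was found on either strand in the 250 bases upstream of 4 of the 27 target genes with a RefSeq promoter (14.8%: BCL6, FGA, ICAM1 and IRF1) and of 6.78% of all 27305 promoters. Among the genes with the widest gaps from control, it was found for 1 of 11 lower genes (9.09%) and 0 of 10 higher genes (0%) with a promoter. ICAM1 and IRF1 differed from control by -0.08 and 0.11.

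TFF1 was the single probe set called. This secreted trefoil peptide protects mucous epithelia and is also made by several carcinomas. It read 7.16 and 7.12 in the siRNA arrays and 10.08 and 10.04 in the controls. Each pair was tight and the pairs lay far apart. With the siRNA, TFF1 fell by 2.92 ± 0.21 log2 units, or 7.58-fold (limma adjusted p = 0.0316). The PIAS3 arrays also read low, at 7.29 and 6.61, and siRNA minus PIAS3 was 0.19 ± 0.21 (adjusted p = 0.811). The call was lost when any siRNA or control array was left out, at adjusted p-values from 0.0685 without siRNA replicate 1 to 1 without control replicate 1, while the difference stayed between -2.94 and -2.90. Of the 17 measured trefoil, mucin and mucous lineage genes, TFF1 was the 1 called and the median was 0.11. On both siRNA arrays 9 of the 17 lay above both controls and 4, TFF1 among them, below (all genes: 19.4% and 19.5%). TFF3 read 6.08 and 5.56 against 5.79 and 5.75. The lineage factor GATA6 stood lower at 6.51 and 6.13 against 7.01 and 7.13 (-0.75 ± 0.19), and FOXA2 higher at 8.15 and 8.69 against 7.99 and 7.95 (0.45 ± 0.17).

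Differences that both siRNA arrays shared leaned downward in size but not in number. Both siRNA arrays lay above both controls for 18.3% of probe sets and below them for 19.1%. With a further distance of at least 1 log2 from the control mean in each array, 0 probe sets (0%) were higher and 13 (0.0585%) lower. At 0.5 log2 the counts were 46 higher (0.207%) and 116 lower (0.522%). Taken alone, siRNA replicate 1 had 17 probe sets (0.0765%) higher than both controls by 1 log2 and 27 (0.122%) lower, and siRNA replicate 2 had 73 (0.329%) and 99 (0.446%). Besides TFF1, the 13 lower probe sets read ATF3, CEACAM6 (2 probe sets), CCL2, TIPARP, TMEM158, CCN2, JUN, KLF6, RASGRP1 and RRAD, and 1 had no single gene symbol. RASGRP1, an activator of Ras, read 4.45 and 4.02 against 5.73 and 5.89. Its siRNA values lay below the lower quartile of all probe sets on those arrays (5.04 and 4.96), so its difference of -1.57 ± 0.20 rests on dim signal on the siRNA side. The same holds for the RRAD probe set in this group, at 4.47 and 4.43 against 5.70 and 5.33.

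**Figure D1:**
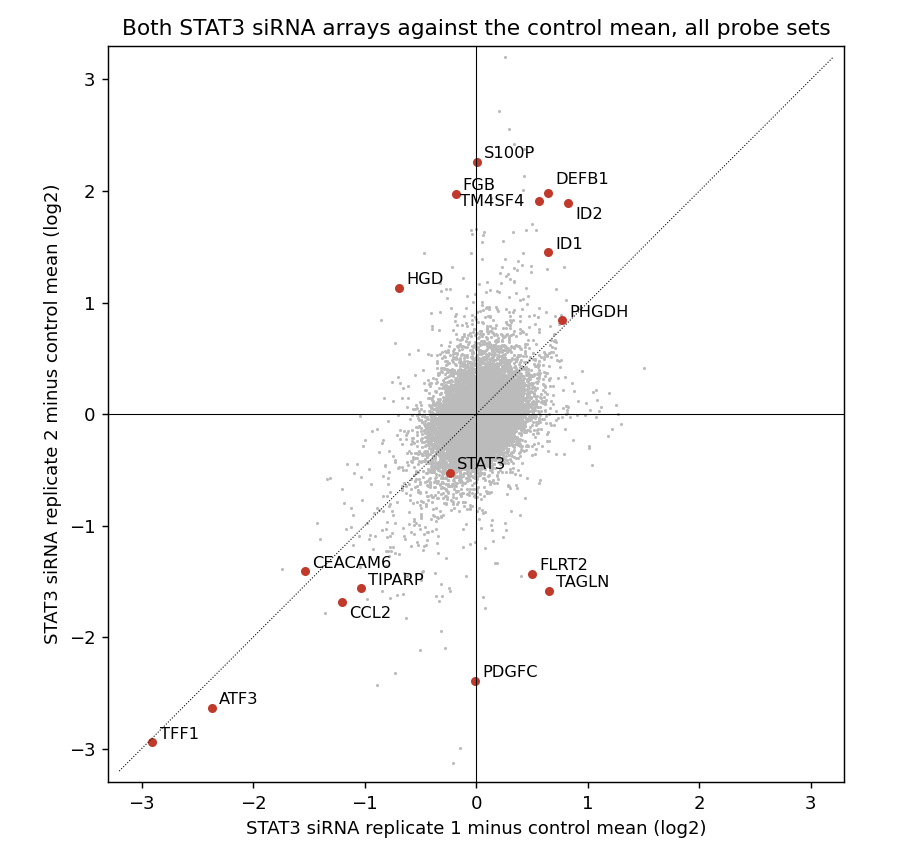
Difference of each STAT3 siRNA array from the control mean (log2) for all 22215 probe sets, replicate 1 on the horizontal and replicate 2 on the vertical axis; the dotted line marks equal differences and red points are named genes. TFF1, at -2.90 and -2.94, and ATF3 lie far down the line of equality, while S100P, FGB, PDGFC and TAGLN lie far from it.

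The list of immediate early and ERK response genes (immediate early genes below) includes transcription factors that ERK signalling switches on within minutes of EGF. Others in it, such as TIPARP and PLAUR, are not transcription factors. The genes of this list stood lower as a group. Their median difference over 32 genes was -0.41, with -0.54 in replicate 1 and -0.25 in replicate 2. Both siRNA arrays lay below both controls for 22 of the 32 and above for 3 (all genes: 19.5% and 19.4%). In limma 11 lower and 1 higher had an unadjusted p under 0.05, against 3.06% and 2.32% of all genes. Replicate 1 alone put 27 below both controls, where it put 32.1% of all genes, and replicate 2 alone 23, where it put 44%. The PIAS3 arrays put 13 and 25 of the 32 below, with medians of 0.13 and -0.30. Over all 22215 probe sets they put 9596 and 8802 below. None was called over all probe sets. ATF3, a stress-induced repressor of the ATF family, read 6.53 and 6.27 against 8.92 and 8.88, the widest gap after TFF1. Its difference was -2.50 ± 0.47, 5.66-fold (adjusted p = 0.442). The PIAS3 arrays disagreed on ATF3, at 8.37 and 6.65, and widened the spread: in a fit of the siRNA and control groups alone ATF3 passed at an adjusted p of 0.00536. TIPARP, an ADP-ribosyltransferase, read 10.07 and 9.54 against 11.05 and 11.16 (-1.30 ± 0.18, adjusted p = 0.238). KLF4 and KLF6, zinc finger factors of epithelial differentiation, differed by -0.99 ± 0.15 and -0.86 ± 0.27. KLF6 read 8.82 and 8.83 against 9.72 and 9.66. Its second probe set gave -1.07 ± 0.24 and a dimmer one -0.23 ± 0.17.

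The AP-1 subunits FOS, FOSB and JUN also stood below both controls on both arrays. FOS read 9.22 and 9.96 against 10.49 and 10.58, FOSB 7.11 and 6.90 against 7.96 and 7.89, and JUN 10.01 and 10.28 against 10.78 and 10.90. The PIAS3 arrays lay on either side of the controls for FOS and FOSB, at 11.00 and 9.44 and at 8.45 and 6.77. FOSL2, another AP-1 subunit, stood above control at 8.48 and 8.34 against 7.97 and 8.02 (0.42 ± 0.14). EGR3 differed by -1.02 ± 0.12 (adjusted p = 0.238), but at 3.53 and 3.40 in the siRNA arrays against 4.50 and 4.48 it was among the dim probe sets. EGR1, the prototype of the group, read 9.78 and 10.40 against 10.92 and 10.76, a difference of -0.76 ± 0.29. EGR1 and SRF are shown because their upstream sequences carry the CArG box, the site of the serum response factor that passes growth factor and actin signals to such genes. The last 120 bases before each RefSeq start lie at chr5:138465359-138465478, plus strand, for EGR1 and at chr6:43171149-43171268, plus strand, for SRF (GRCh38.p14), with CArG boxes in capitals:
EGR1: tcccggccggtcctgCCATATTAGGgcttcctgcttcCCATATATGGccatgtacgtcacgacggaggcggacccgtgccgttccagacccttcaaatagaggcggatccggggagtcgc
SRF: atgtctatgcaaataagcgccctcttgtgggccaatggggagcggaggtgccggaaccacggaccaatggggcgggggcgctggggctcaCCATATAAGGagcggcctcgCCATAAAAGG

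Each of these windows holds 2 CArG boxes. SRF, the serum response factor itself, read 7.52 and 7.42 against 8.0 and 7.83, below both controls (-0.44 ± 0.13). SRF belongs to a list of 27 YAP, SRF and actin genes, of which 17 lay below both controls on both siRNA arrays and 2 above (all genes: 19.5% and 19.4%). The list's median was -0.32, with -0.23 in replicate 1 and -0.46 in replicate 2, and 0 members were called. Each siRNA array alone put 20 of the 27 below both controls, where replicate 1 put 32.1% of all genes and replicate 2 44%. The PIAS3 arrays, set against the same controls, put 20 and 21 of the 27 below, with medians of -0.57 and -0.38. Over all 22215 probe sets they put 9596 and 8802 below. CArG boxes were found within 250 bases upstream in 6 of the 22 list members with a RefSeq promoter (27.3%: SRF, FHL2, CNN2, FILIP1L, TPM4 and ACTG2) and in 1.14% of all promoters. Of 22 immediate early genes with a RefSeq promoter, EGR1 was the 1 with a CArG box there (4.55%). Among the genes with the widest gaps from control, 0 of 11 lower and 0 of 10 higher genes with a promoter had one. FHL2 stood lower at 9.55 and 9.53 against 10.05 and 10.02, while ACTG2 read 6.03 and 6.11 against 6.08 and 6.09, with overlap.

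**Figure D2:**
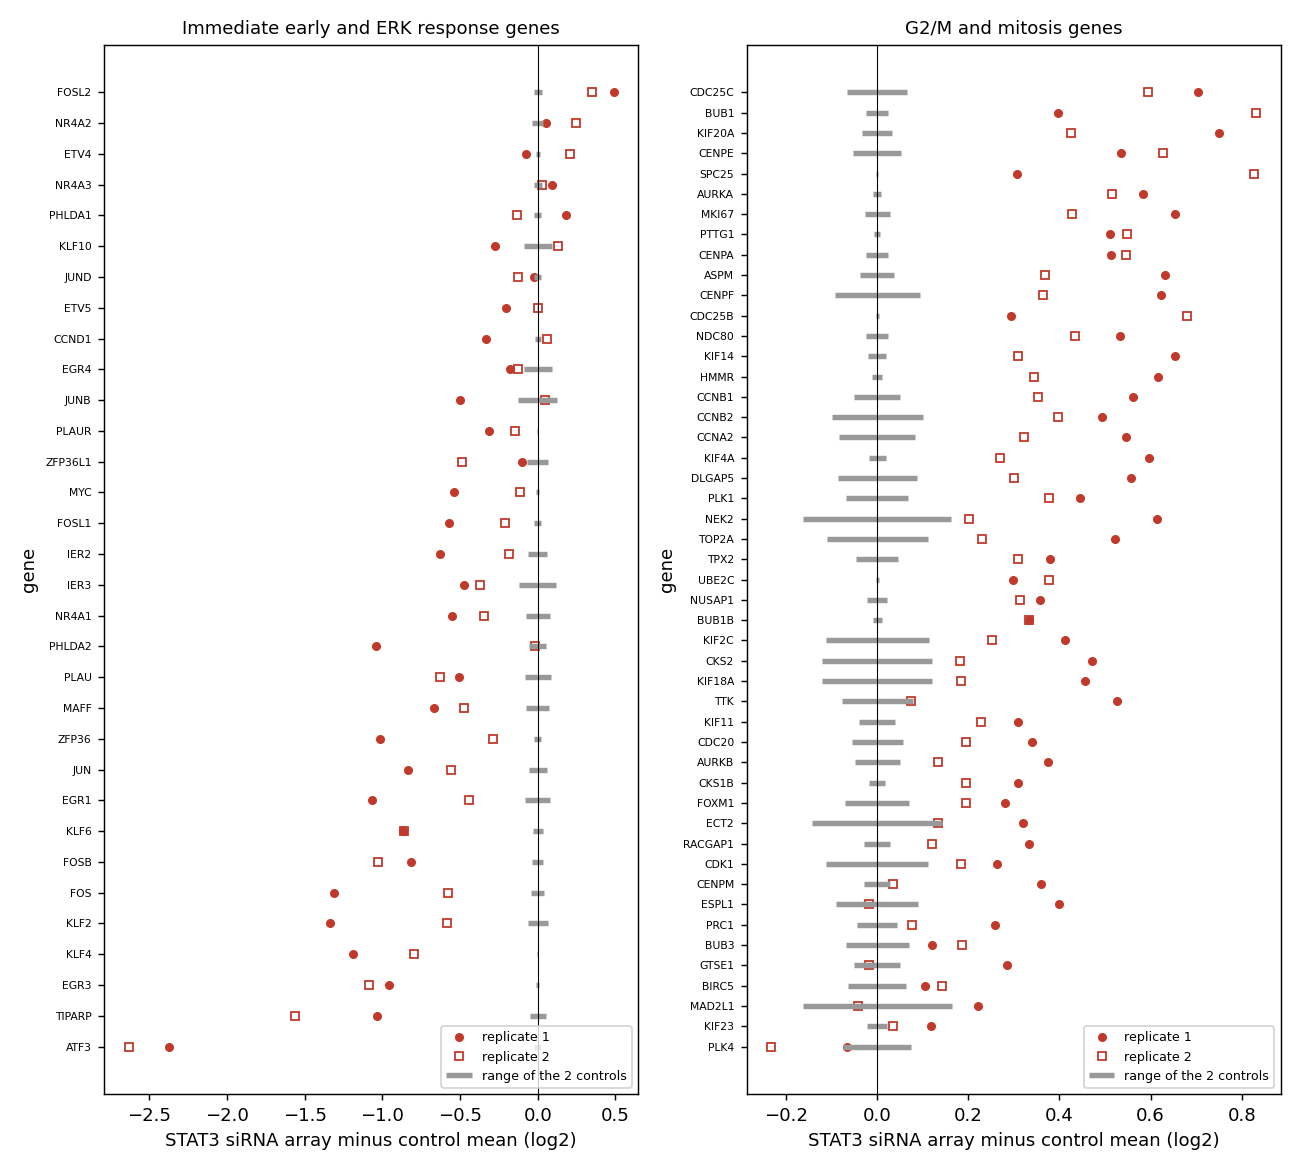
Difference of each STAT3 siRNA array from the control mean (log2) for the 32 immediate early genes and the 48 G2/M genes; grey bars span the 2 controls. In the first panel 22 genes have both arrays left of the bar (all genes: 19.5%). In the second 42 have both arrays right of it (all genes: 19.4%).

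The matricellular proteins CCN1 and CCN2, secreted regulators of adhesion that YAP and SRF control, led the YAP, SRF and actin genes. CCN2 read 9.13 and 9.07 against 10.30 and 10.18, with tight pairs and no overlap. It differed by -1.14 ± 0.12 (adjusted p = 0.202), and the PIAS3 arrays read 9.02 and 9.20. CCN1 read 11.15 and 10.71 against 11.87 and 12.00, and its other probe set gave -0.94 ± 0.18. F3, the tissue factor that starts coagulation, stood at 7.23 and 6.82 against 7.91 and 8.10. The actin-associated proteins VCL, ACTN1, TPM1 and MYH9 differed by -0.52, -0.38, -0.40 and -0.42, each with an SE between 0.12 and 0.15.

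Genes of TGF-beta signalling and the extracellular matrix lay on both sides of the controls. Of 31 measured, 19 lay below both controls on both siRNA arrays and 5 above (all genes: 19.5% and 19.4%), and 0 were called. The median was -0.31, with -0.19 in replicate 1 and -0.35 in replicate 2. In the PIAS3 arrays 19 and 22 of the 31 lay below both controls, with medians of -0.36 and -0.37. Over all 22215 probe sets 9596 and 8802 did so. COL4A1, a basement membrane collagen, read 10.03 and 9.47 against 10.76 and 10.68 (-0.97 ± 0.18). The integrin subunit ITGAV read 10.95 and 10.93 against 11.66 and 11.50, with no overlap. SPARC, a collagen-binding protein, was low in replicate 2 and near control in replicate 1, at 9.90 and 7.05 against 9.95 and 10.14. SNAI2, a repressor of epithelial genes, lay below both controls on both arrays and lower in replicate 2, at 6.33 and 5.14 against 6.83 and 7.09. The 5 genes above both controls were ID1, ID2, ID3, ID4 and SKIL. The ID proteins are inhibitors of basic helix-loop-helix factors that BMP signals induce. ID1 read 10.72 and 11.52 against 10.10 and 10.04, and ID2 9.33 and 10.40 against 8.30 and 8.72. For both genes replicate 2 lay further above the controls than replicate 1. The differences were 1.05 ± 0.33 and 1.36 ± 0.33 (adjusted p of 0.909 and 0.678). ID3 and ID4 differed by 0.16 ± 0.14 and 0.35 ± 0.18, and SKIL, an inhibitor of SMAD signalling, by 0.45 ± 0.21.

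Among inflammatory genes more lay below the controls than above. Of 30 NF-kB targets and cytokines 14 lay below both controls on both siRNA arrays and 2 above (all genes: 19.5% and 19.4%). The median was -0.20, with -0.14 in replicate 1 and -0.23 in replicate 2. CCL2, a chemokine that attracts monocytes, read 6.99 and 6.50 against 8.16 and 8.21 (-1.44 ± 0.17, adjusted p = 0.238), and 6.65 and 6.39 in the PIAS3 arrays. CXCL8, which attracts neutrophils, read 9.10 and 9.35 against 10.07 and 10.18 (-0.90 ± 0.28), and its second probe set gave -1.20 ± 0.27. The NF-kB subunit RELB read 7.26 and 7.19 against 7.77 and 7.77. NFKBIA, the inhibitor that NF-kB induces, overlapped with the controls at 9.86 and 10.01 against 9.86 and 9.90.

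The EGF receptor family and its ligands bear on the stimulus named in the control titles. Of 15 measured, 5 lay below both controls and 1 above (all genes: 19.5% and 19.4%). The median was -0.02, with -0.13 in replicate 1 and -0.07 in replicate 2. HBEGF, a membrane-anchored ligand of EGFR, read 6.54 and 6.25 against 7.52 and 7.41 (-1.07 ± 0.14, adjusted p = 0.238). A second HBEGF probe set gave -0.78 ± 0.16 and a dim one 0.12 ± 0.13. EGFR read 10.00 and 10.06 against 10.42 and 10.56 by its brightest probe set (-0.46 ± 0.12), while its other 5 probe sets gave -0.22 to 0.20. The ligand EREG stood at 10.24 and 10.11 against 10.50 and 10.76. Of 11 feedback inhibitors of ERK, 4 lay below both controls and 1 above (all genes: 19.5% and 19.4%). The higher one was SPRY1, at 5.96 and 5.87 against 5.51 and 5.68 (0.32 ± 0.12). SPRY2 read 8.46 and 8.18 against 8.96 and 8.96 and the phosphatase DUSP1 11.96 and 12.18 against 12.63 and 12.68. DUSP6, a phosphatase that follows ERK activity, read 7.12 and 7.18 against 7.15 and 7.15, with overlap.

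CEACAM6, a carcinoembryonic antigen family adhesion molecule, had the widest gap after TFF1 and ATF3. It read 9.46 and 9.59 against 10.98 and 11.02, with no overlap. The difference was -1.47 ± 0.18, 2.78-fold (adjusted p = 0.238), and its second probe set gave -1.57 ± 0.26. In a fit of the siRNA and control groups alone it passed at an adjusted p of 0.0311. Of the 26 epithelial junction and keratin genes 13 lay below both controls and 2 above (all genes: 19.5% and 19.4%). The median was -0.16, with -0.09 in replicate 1 and -0.15 in replicate 2. The tight junction protein CLDN1 read 7.47 and 7.47 against 8.23 and 8.67. CDH1, the E-cadherin of epithelial cells, read 8.37 and 8.60 against 8.31 and 8.19, and KRT19 10.76 and 9.42 against 11.16 and 11.02.

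Other genes with wide gaps below control had varied roles. TMEM158, a membrane protein induced by Ras, read 8.22 and 7.90 against 9.30 and 9.23 (-1.21 ± 0.16), and still lower in the PIAS3 arrays at 7.13 and 7.45. GADD45A, a growth arrest and DNA damage gene, read 8.87 and 8.68 against 9.82 and 9.74 (-1.0 ± 0.14). NFE2L3, a relative of NRF2, read 6.97 and 6.99 against 7.94 and 7.82, and the chaperone SCG5 of secretory cells 6.12 and 5.37 against 6.88 and 7.03. For PRSS3, at 7.71 and 7.29 against 8.55 and 8.49, the trypsinogen genes are nearly identical in sequence, so which of them the probe set reads is uncertain.

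**Figure D3:**
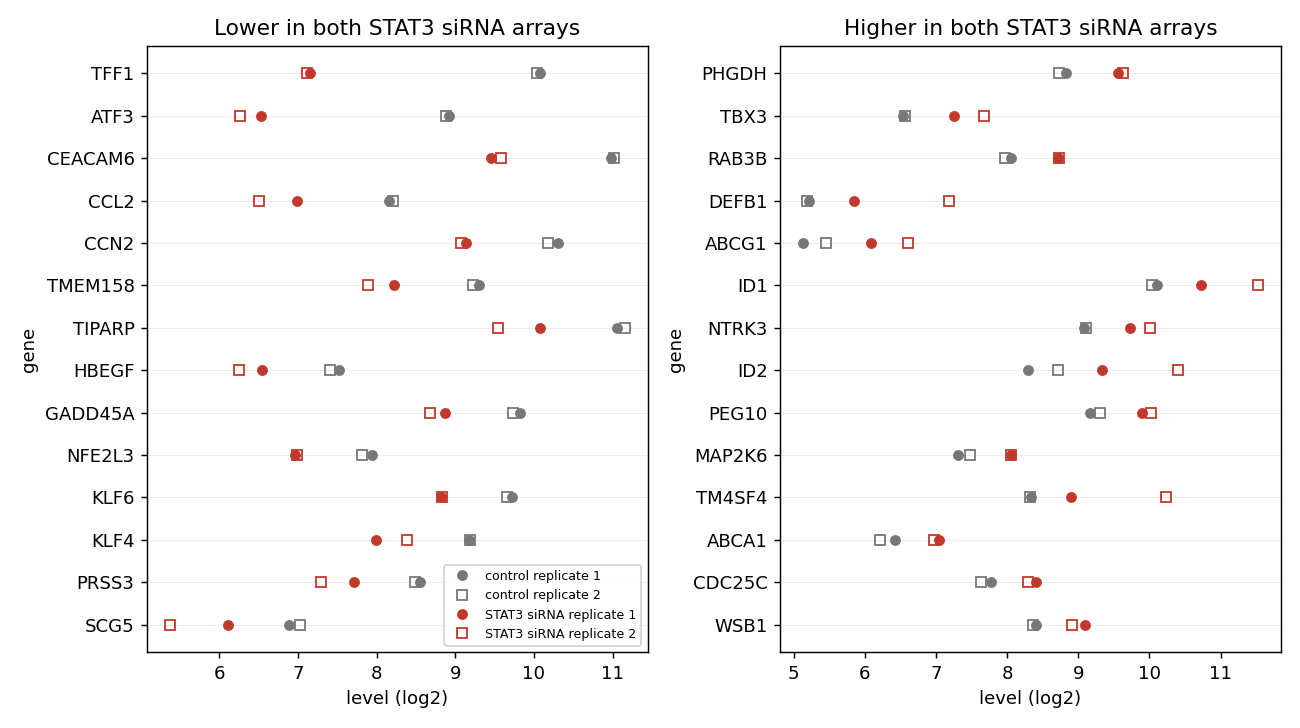
Log2 levels on the 2 control arrays (grey) and the 2 STAT3 siRNA arrays (red; filled for replicate 1, open for replicate 2) for the 14 genes with the widest gap between the groups in each direction. TFF1 shows the widest gap, from 7.16 and 7.12 to 10.08 and 10.04, and the gaps of the higher genes are narrower, 0.51 to 0.73.

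Genes above control in both siRNA arrays had narrower gaps, and 0 were called. At the looser threshold of an unadjusted limma p under 0.05, 461 probe sets (2.08%) were higher and 616 (2.77%) lower. Together these shares are about what that threshold passes where no probe set differs. PHGDH, which opens the synthesis of serine from glucose, had the widest gap at 9.55 and 9.62 against 8.82 and 8.74 (0.81 ± 0.30). The PIAS3 arrays read 8.97 and 10.04. Other genes of serine and amino acid synthesis stood higher too. The asparagine synthetase ASNS read 11.17 and 11.23 against 10.47 and 10.38, and the serine pathway enzyme PSAT1 10.72 and 10.59 against 9.91 and 10.15. CBS, which makes cystathionine, read 8.25 and 8.25 against 7.83 and 7.83. These genes belong to a list of 24 ATF4 and amino acid response genes, of which 11 lay above both controls and 6 below (all genes: 19.4% and 19.5%). The median was 0.12, with 0.02 in replicate 1 and 0.16 in replicate 2. ATF3, STC2 and TRIB3 of the same list stood below control, by -2.50, -0.59 and -0.45. ATF4 itself read 11.03 and 11.60 against 11.48 and 11.30, on either side of the controls.

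TBX3, a developmental repressor, read 7.26 and 7.67 against 6.53 and 6.56 (0.92 ± 0.15, adjusted p = 0.303). NTRK3, the receptor for neurotrophin-3, read 9.73 and 10.01 against 9.08 and 9.11, and all 7 of its probe sets gave a positive difference, from 0.42 to 0.77. PEG10, a gene derived from a retrotransposon, read 9.90 and 10.02 against 9.17 and 9.30. The kinase MAP2K6, which activates p38, read 8.06 and 8.05 against 7.31 and 7.47 by its brighter probe set, while a dim one gave 0.00 ± 0.12. The cholesterol exporters ABCA1 and ABCG1 stood above control by 0.68 ± 0.17 and 1.05 ± 0.23. ABCA1 read 7.04 and 6.97 against 6.43 and 6.22. The lipid regulator SREBF1 read 9.05 and 9.21 against 8.77 and 8.58, whereas INSIG1, a sterol-induced inhibitor of SREBP processing, read 8.79 and 8.05 against 9.08 and 9.20. In DEFB1, an antimicrobial peptide, and TM4SF4, a tetraspanin-like protein, replicate 2 set most of the difference. DEFB1 read 5.84 and 7.18 against 5.21 and 5.19, and TM4SF4 8.89 and 10.24 against 8.33 and 8.32. Without siRNA replicate 1, TM4SF4 passed at an adjusted p of 0.0385 with a difference of 1.91.

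Genes of G2 phase and mitosis stood above control by small and similar amounts. Of 48 measured, 42 lay above both controls on both siRNA arrays and 0 below, against 19.4% and 19.5% of all genes. The median difference was 0.34, with 0.41 in replicate 1 and 0.28 in replicate 2. An unadjusted p under 0.05 was found for 25 of the 48 and a call for 0. Replicate 1 alone put 47 above both controls, where it put 41.8% of all genes, and replicate 2 alone 42, where it put 33.7%. In the PIAS3 arrays 19 and 40 of the same 48 lay above both controls, beside 39.5% and 39.4% of all genes, with medians of 0.01 and 0.23. These values share the control arrays. These genes are known to be transcribed together late in the cell cycle through the cell cycle homology region, TTTGAA, and CCAAT boxes close to their starts. Upstream sequences of 3 members are shown for that element. The last 120 bases before the RefSeq start lie at chr10:128126424-128126543, minus strand, for MKI67, at chr16:23678769-23678888, plus strand, for PLK1 and at chr2:26785936-26786055, plus strand, for CENPA (GRCh38.p14), with TTTGAA in capitals:
MKI67: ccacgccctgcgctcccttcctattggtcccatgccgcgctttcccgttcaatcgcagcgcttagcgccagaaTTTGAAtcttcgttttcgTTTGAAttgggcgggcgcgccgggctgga
PLK1: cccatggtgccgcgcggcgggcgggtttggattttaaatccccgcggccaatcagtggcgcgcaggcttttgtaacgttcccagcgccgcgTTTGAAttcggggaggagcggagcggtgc
CENPA: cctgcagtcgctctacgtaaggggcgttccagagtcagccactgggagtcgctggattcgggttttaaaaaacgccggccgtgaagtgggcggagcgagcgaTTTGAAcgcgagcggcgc

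TTTGAA was found on either strand in the 250 bases upstream of 22 of the 39 G2/M genes with a RefSeq promoter (56.4%), of 1 of 38 G1/S genes (2.63%) and of 13.6% of all promoters. CCAAT was found in 32 of the 39 (82.1%), in 20 of the 38 (52.6%) and in 33% of all. MKI67, the proliferation antigen, read 9.24 and 9.01 against 8.56 and 8.61, with no overlap (0.54 ± 0.13, adjusted p = 0.678). The mitotic kinase PLK1 read 9.81 and 9.74 against 9.43 and 9.30, and the centromeric histone CENPA 9.25 and 9.28 against 8.76 and 8.71. CDC25C, the phosphatase that opens mitosis by activating CDK1, showed the widest difference of the list, at 8.41 and 8.30 against 7.77 and 7.64 (0.65 ± 0.20). Its other probe sets gave 0.23 ± 0.10 and 0.53 ± 0.27. The kinesins KIF20A and CENPE and the spindle protein ASPM differed by 0.59 ± 0.15, 0.58 ± 0.14 and 0.50 ± 0.13. PLK4, the kinase of centriole duplication, read 8.12 and 7.95 against 8.11 and 8.26 and was the member with the lowest difference.

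Genes of G1/S and DNA replication showed no such shift. Their median over 43 genes was -0.04, 9 lay above both controls and 12 below (all genes: 19.4% and 19.5%), and 0 had an unadjusted p under 0.05 in limma. The PIAS3 arrays put 42 and 27 of the 43 below both controls, with medians of -0.57 and -0.07. Over all 22215 probe sets they put 9596 and 8802 below. This split widened the SE of the fit for these genes, so the 0 can show little. The replication clamp PCNA read 12.35 and 12.29 against 12.33 and 12.43. CCNE2, which drives entry into S phase, read 7.42 and 8.0 against 8.18 and 8.35 (-0.55 ± 0.34). Among cyclin D genes and CDK inhibitors CCND3 stood higher at 11.40 and 12.01 against 10.99 and 10.96 (0.73 ± 0.20). The CDK inhibitor CDKN1A read 10.10 and 9.89 against 10.21 and 10.09.

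Apoptosis genes, which the study's design puts first, gave 0 calls in 4 lists, where over all probe sets 0% were called higher and 0.0045% lower. The median differences were -0.06 over 12 pro-apoptotic BCL2 family genes, -0.02 over 18 anti-apoptotic genes, 0.09 over 15 caspase and apoptosome genes and -0.14 over 15 death receptor genes. In that order, 2, 3, 5 and 1 genes lay above both controls on both siRNA arrays (all genes: 19.4%). Below both controls lay 3, 3, 1 and 7 (all genes: 19.5%). For the pro-apoptotic list replicate 1 gave 0.04 and replicate 2 -0.20, and for each of the other lists the arrays gave medians of the same sign. BAX, which opens the mitochondrial membrane, read 9.43 and 9.05 against 9.30 and 9.26, with overlap. The sensitiser PMAIP1 read 8.48 and 8.28 against 8.57 and 9.12, and BCL2L11 5.13 and 5.08 against 4.83 and 4.89. CASP8, the initiator caspase of death receptors, read 8.09 and 8.58 against 8.04 and 8.12, and CASP9, that of the apoptosome, 8.06 and 7.95 against 7.73 and 7.84. Within the list of death receptors and ligands, TNFRSF12A read 10.85 and 11.01 against 11.57 and 11.43 (-0.58 ± 0.16). TNFRSF21 read 10.33 and 9.99 against 10.82 and 10.71 (-0.60 ± 0.17). TNFSF10, the ligand TRAIL, read 4.53 and 4.38 against 4.10 and 3.94, at the dim end. Of 26 p53 targets, 4 lay above and 10 below both controls (all genes: 19.4% and 19.5%) with a median of -0.12, GADD45A being lowest. MDM2, the p53 ubiquitin ligase, read 5.91 and 5.80 against 5.70 and 5.81.

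Interferon-stimulated genes, which double-stranded RNA can induce, stayed near control as a group in both siRNA arrays. Their median over 45 genes was -0.03, with -0.03 in replicate 1 and -0.05 in replicate 2. In limma 0 had an unadjusted p under 0.05, against 2.32% higher and 3.06% lower over all genes. Of the 45, 4 lay above both controls on both siRNA arrays and 11 below (all genes: 19.4% and 19.5%). Differences ran from -0.74 to 0.54, and 1 gene lay at least 0.5 log2 below the control mean on both arrays. ISG15, a ubiquitin-like modifier, read 7.17 and 7.38 against 7.19 and 7.31. MX1, an antiviral GTPase, read 5.05 and 4.94 against 4.82 and 4.94. OAS1 and IFIT1 were higher in replicate 2 than in replicate 1, at 5.97 and 7.47 against 6.34 and 6.24 and at 4.36 and 5.21 against 4.18 and 4.32. The fit could show little for these genes, because the PIAS3 arrays read 12.36 and 4.57 for IFIT1 and so set an SE of 2.06.

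**Figure D4:**
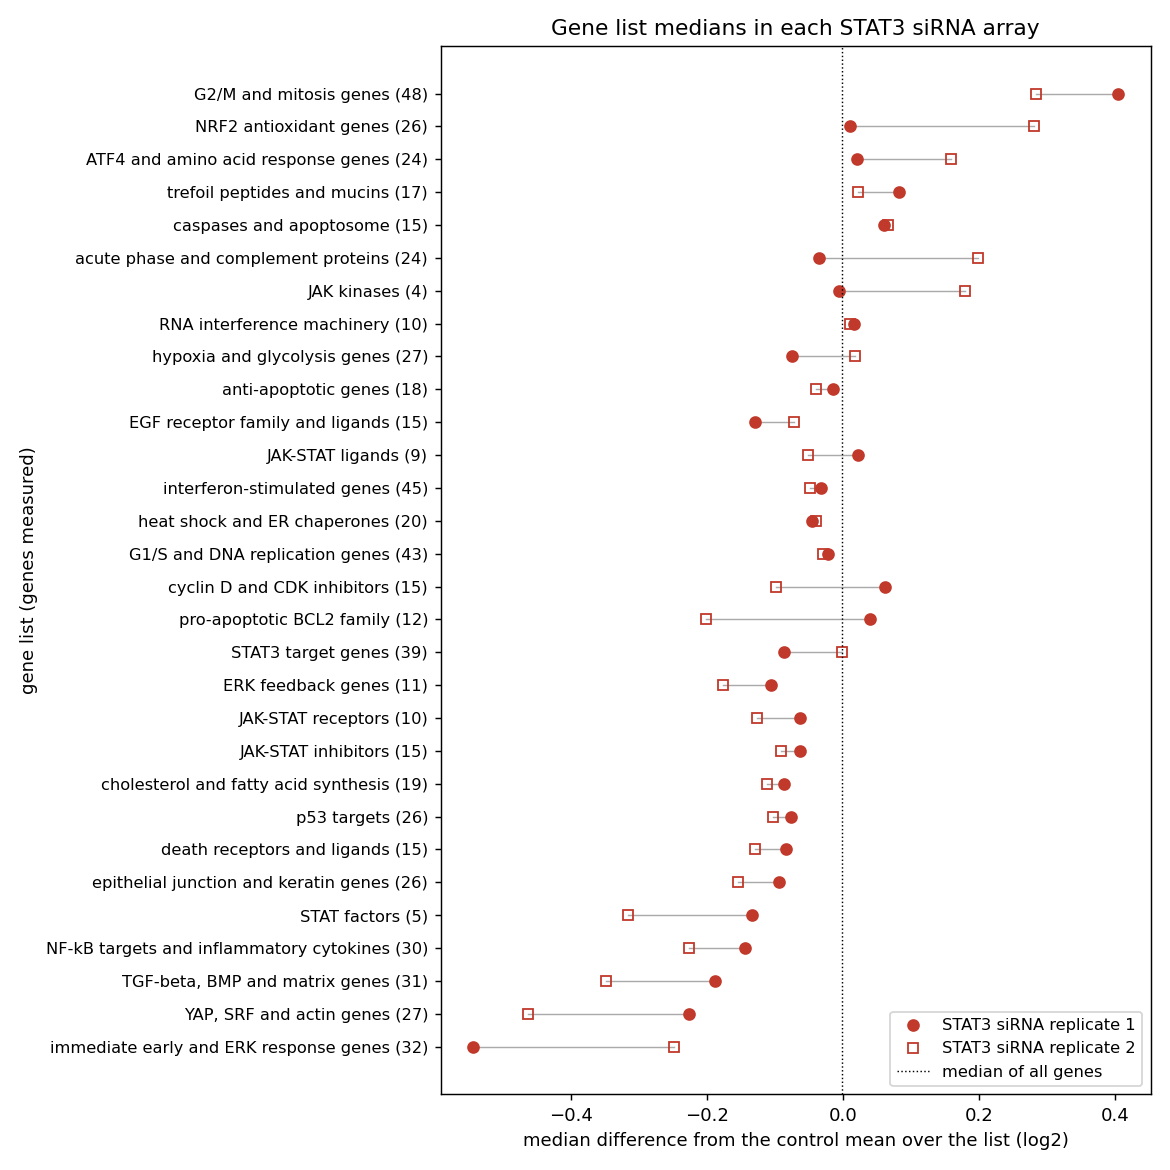
Median difference from the control mean (log2) over each gene list for STAT3 siRNA replicate 1 (filled) and replicate 2 (open); the dotted line is the median of all genes. G2/M genes lie highest, at 0.41 and 0.28. Immediate early genes lie lowest in replicate 1, at -0.54, and YAP, SRF and actin genes lowest in replicate 2, at -0.46.

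The siRNA arrays disagreed on a large share of probe sets. Replicate 1 lay above and replicate 2 below both controls for 14.8%, and the reverse held for 7%. These counts give direction without size. Over all probe sets the median difference from the control mean was 0.02 in replicate 1 and -0.03 in replicate 2, and its part in the counts was not tested. Secreted and epithelial genes were among those high in replicate 2 alone. S100P, a calcium-binding protein of several carcinomas, stood at 6.89 on the first siRNA array and 9.14 on the second, at 6.94 and 6.83 in the controls and at 10.90 and 9.57 with PIAS3. The fibrinogen chain FGB read 5.47 and 7.63 against 5.73 and 5.59, while FGA, another chain, was above both controls on both arrays, at 6.30 and 7.42 against 5.63 and 5.90. The receptor NOTCH3 read 6.31 and 8.01 against 6.41 and 6.30, and HGD, an enzyme of tyrosine breakdown, 6.54 and 8.36 against 7.22 and 7.24. Genes low in replicate 2 alone included growth factor and actin genes. PDGFC, a platelet-derived growth factor, read 7.32 and 4.94 against 7.31 and 7.34, and 4.83 and 4.75 in the PIAS3 arrays. TAGLN, an actin-binding protein of smooth muscle, read 10.76 and 8.52 against 10.12 and 10.09, and 6.79 and 8.89 in the PIAS3 arrays. For the 12 genes with the widest such disagreement, siRNA replicate 2 lay on the side of both PIAS3 arrays relative to the controls, and these genes were chosen for that disagreement between the siRNA arrays.

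**Figure D5:**
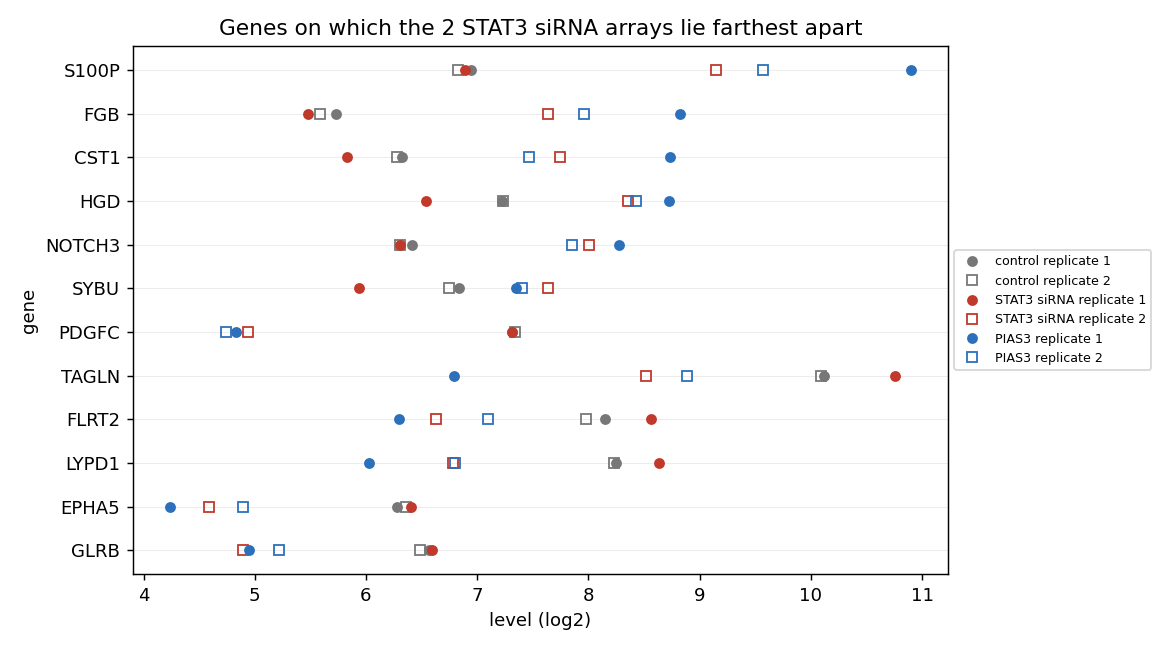
Log2 levels of the 12 genes on which the 2 STAT3 siRNA arrays (red) differ most, with the controls (grey) and the PIAS3 arrays (blue); filled symbols are replicate 1 and open symbols replicate 2. For PDGFC, siRNA replicate 1 reads 7.32 with the controls and replicate 2 reads 4.94 near the PIAS3 arrays.

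Antioxidant genes under NRF2 showed the same split. Their median over 26 genes was 0.01 in replicate 1 and 0.28 in replicate 2, with 12 and 25 above both controls (against 41.8% and 33.7% of all genes). In the PIAS3 arrays 26 and 22 lay above both controls, beside 39.5% and 39.4% of all genes, with medians of 0.33 and 0.31. HMOX1, the heme oxygenase, read 9.87 and 10.99 against 9.60 and 9.62 (0.82 ± 0.31). The glutathione synthesis subunits GCLM and GCLC stood above control on both arrays, by 0.44 ± 0.14 and 0.51 ± 0.21. GCLM read 10.67 and 10.94 against 10.26 and 10.47.

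Nothing separated the siRNA arrays from the PIAS3 arrays in the fit. Of 22215 probe sets 0 (0%) were called, and the smallest adjusted p was 0.607. At an unadjusted p under 0.05, 1006 (4.53%) were higher with the siRNA and 793 (3.57%) lower. Leaving out PIAS3 replicate 2 gave 544 calls, which rest on PIAS3 replicate 1 as the only array of its group. Among the genes with the widest gaps from control, the siRNA arrays read 0.77 ± 0.16 above the PIAS3 arrays for TMEM158 and 0.75 ± 0.19 for RAB3B, a vesicle GTPase (adjusted p = 0.607 for both). RAB3B read 8.71 and 8.73 with the siRNA, 7.66 and 8.29 with PIAS3 and 8.06 and 7.97 in the controls. For CCN2 the difference between the transfected groups was -0.01 ± 0.12.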

How the data were processed

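The table the authors deposited holds log2 levels of 22277 probe sets on 6 Affymetrix arrays, and the submitters' processing notes name RMA, without a version. RMA corrects background, equalises arrays and summarises probes, which shrinks differences of dim probe sets. Scan values and array dates were not used here, and no test of array batches was made. No source used here names a genome build. Of the probe sets 62 are controls and were left out. Symbols came from the platform annotation: 19064 probe sets had 1 symbol, 1043 several and 2108 none. Each of 11963 genes was represented by its brightest probe set, judged by the 6-array mean.

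Groups came from titles. Differences were tested with limma 3.58.1 (lmFit and eBayes, two-sided) in R 4.3.3, in one fit of all 6 arrays with 3 residual and 4.27 prior degrees of freedom, adjusted by Benjamini-Hochberg. The fit was tested on simulated data. Replicate numbers did not pair the arrays: deviations of same-numbered arrays correlated at -0.06 (siRNA, control), -0.05 (siRNA, PIAS3) and 0.09 (PIAS3, control). The comparison and its 35 lists were chosen with earlier results of these data known. Of 720 list entries 634 were measured. Named genes were STAT3 and PIAS3, called genes, up to 14 per direction with the widest gap between groups (unadjusted p under 0.05, higher mean at least 6), 4 per list with the smallest p, all JAK-STAT members, and 6 per direction on which the siRNA arrays differed most. Other genes named were chosen after their values were seen, as were those whose sequences are printed. Promoters are RefSeq sequences of GRCh38.p14, the first per gene. Motifs were searched on both strands in 250 bases upstream, and a match is a description of letters. Figures used matplotlib 3.10.9 in Python 3.11.15.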

Additional observations from a re-analysis of the deposited data

How the results depend on the processing

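The alternatives were repeated quantile normalization, cyclic loess, centred array medians, a filter of probe sets under the 40th percentile, a replicate block, other eBayes settings, an adjusted p of 0.10, a fit of the 2 groups alone and leaving out each array. Probe sets called higher with the siRNA numbered 0, and 0 to 2 with an array left out (2 without siRNA replicate 1). Those called lower numbered 1 and became 0 with repeated quantile normalization or cyclic loess, 3 in the fit of the 2 groups alone, and 0 to 3 with an array left out. They were 3 without siRNA replicate 1 or either PIAS3 array and 0 without siRNA replicate 2 or either control. The replicate block left 0 higher and 1 lower. TFF1 missed the threshold after repeated quantile normalization, at -2.90 and an adjusted p of 0.0609, and after cyclic loess, at -2.92 and 0.0707. The call count between siRNA and PIAS3 arrays was 0, and 0 to 544 with an array left out. Shared changes at 0.5 log2 in place of 1 log2 numbered 46 higher and 116 lower. STAT3 stayed uncalled in every alternative run, with differences from -0.53 to -0.24 when arrays were left out. The immediate early median was -0.25 without siRNA replicate 1. Of 42 named genes with overlapping groups, 27 changed sign in at least 1 of 15 alternatives, so they have no direction here. With 1 array left out, the single array remaining in that group was taken to vary as much as arrays elsewhere. The cause of the lost calls was not tested.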

Other observations

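Some further groups stayed close to control or split between their members. Of 27 hypoxia and glycolysis genes 4 lay above both controls on both siRNA arrays and 5 below (all genes: 19.4% and 19.5%), with a median of 0.00. The collagen prolyl hydroxylase subunits P4HA1 and P4HA2 read 9.16 and 8.98 against 9.35 and 9.54 and 9.52 and 9.51 against 9.98 and 9.92, below both controls. PFKFB3, which drives glycolysis through fructose 2,6-bisphosphate, read 10.45 and 10.87 against 10.25 and 10.27, above both. The glycolytic enzymes LDHA and GAPDH overlapped with the controls, at 13.42 and 13.40 against 13.40 and 13.44 and at 14.12 and 14.17 against 14.16 and 14.13.

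Of 20 heat shock and ER chaperone genes the small heat shock protein HSPB8 stood lowest, at 7.81 and 7.38 against 8.38 and 8.33 (-0.76 ± 0.19), and the list's median was -0.03. The ER chaperone HSPA5 read 12.01 and 12.20 against 12.21 and 12.27. Of 19 cholesterol and fatty acid synthesis genes 5 lay above both controls and 10 below (all genes: 19.4% and 19.5%), with a median of -0.11. The sterol synthesis enzymes SQLE and MSMO1 read 9.41 and 9.55 against 9.68 and 9.84 and 9.14 and 9.14 against 9.43 and 9.66, whereas the desaturase SCD read 10.90 and 11.30 against 10.80 and 10.69. Both endothelial and fibroblast markers gave 0 calls. COL1A1, shared by fibroblasts and some carcinoma cells, read 8.88 and 8.58 against 8.85 and 8.76, and the endothelial VWF 6.57 and 6.19 against 6.32 and 6.54.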
